A study of Mus musculus with 2 samples.

Results

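The genes described here are Krt1, Krt77, Sbsn, Calm4 and Calm5, 5 of the 480 genes of a Xenium panel measured in mouse skin. They were chosen by name, as genes of the spinous layer of the epidermis, and every transcript with a quality score of at least 20 was used. Xenium images single RNA molecules in a tissue section with barcoded circular probes and gives each molecule a position and, where it falls in a segmented cell, a cell. The groups were 1 section of Utx-cKO skin and 1 section of WT skin. In the Utx-cKO genotype Kdm6a (Utx) was deleted with Krt14-Cre. This Cre acts in the keratin-14 expressing tissues (epidermis, hair follicles and sebaceous glands among them), so cells of the dermis keep the gene. The WT section was the control. Both came from whole skin of B6/129 females that had developed normally and received no treatment, fixed, embedded in paraffin and sectioned at 5 µm. The sources used here give neither ages nor how many animals lie behind a section. With 1 section per group no test between Utx-cKO and WT was possible, no p-value is given, and the bracketed ranges are exact 95% intervals that cover counting error only. The tissue of either section fell into 4 strips, numbered 1 to 4 by position, and their values show the spread inside a section; they are not replicates of a genotype.

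The epidermis renews itself from a basal layer that expresses Krt5 and Krt15. Cells that leave this layer become spinous keratinocytes, which switch from basal to suprabasal keratins, and then granular cells, which make the precursors of the cornified envelope. Krt1 encodes the suprabasal type II keratin that pairs with keratin 10. Krt77 is a neighbouring type II keratin gene, Sbsn encodes suprabasin, a secreted protein named for the suprabasal layers, and Calm4 and Calm5 encode calmodulin-like calcium-binding proteins known in mouse as skin calmodulin-related factors.

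The Utx-cKO section held 52308 segmented cells and 2875112 gene transcripts, the WT section 40371 cells and 3540184 transcripts. Cells with at least 20 transcripts were kept, and those in which keratinocyte markers other than the 5 genes reached 6% of transcripts and numbered at least 3 were called epithelial. This gave 22573 epithelial cells with a median of 54 transcripts in Utx-cKO and 18170 with a median of 65 in WT. Kdm6a itself had 3539 transcripts in Utx-cKO epithelial cells and 4088 in WT, or 2311 and 2791 CPM (counts per 1000000 panel transcripts of those cells), a log2 ratio of -0.27 (-0.34 to -0.21). Its strips overlapped, from 1807 to 2821 CPM in Utx-cKO and from 1842 to 3399 CPM in WT. In a band along the surface of the epidermis, described further on, it was at 2742 CPM in Utx-cKO and 2658 CPM in WT, a log2 ratio of 0.045 (-0.058 to 0.15). The sources used here do not say which exons its probes target, so this value does not check the labels.

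All 5 genes were detected well above the 20 negative control probes, whose highest count in cells was 199 in Utx-cKO and 117 in WT and whose median was 9.5 and 5. Krt1 had 16981 transcripts in the Utx-cKO section and 11217 in the WT section, Krt77 33808 and 38206, and Sbsn 40580 and 38866. Calm4 had 14293 and 11957, and Calm5, the sparsest of the 5, had 2718 and 2273. Probes of different genes need not detect their targets with the same efficiency, so levels are compared here between places and sections and not between genes. Of the epithelial cells, 21.8% in Utx-cKO and 21.0% in WT held at least 1 Krt1 transcript, 32.8% and 38.2% Krt77, 51.1% and 52.4% Sbsn, 24.1% and 24.9% Calm4, and 8.32% and 8.73% Calm5. In the kept cells that were not epithelial, with median transcript counts of 40 in Utx-cKO and 58 in WT, these shares were 0.729% and 0.583% for Krt1, 1.73% and 2.37% for Krt77, 3.24% and 4.15% for Sbsn, 0.641% and 0.808% for Calm4 and 0.708% and 0.649% for Calm5. These shares serve as the background of detection in cells that should lack the genes.

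The 5 genes come from 3 neighbourhoods of the mouse genome. By the RefSeq gene order Krt1 and Krt77 are adjacent coding genes on chromosome 15, between Krt2 and Krt76. Calm4 and Calm5 are adjacent on chromosome 13 and follow Calml3, and Sbsn lies beside Dmkn on chromosome 7. The promoter sequences of Calm4 and Calm5 are shown because these genes form a tandem pair whose upstream sequence is nearly the same, while their transcripts lay at different depths of the epidermis. Capitals mark the stretch of 206 bases that both share, of which 205 are identical. The Calm4 window is chr13:3837507-3837756 and the Calm5 window chr13:3853923-3854172, both on the plus strand of GRCm38.p6 (RefSeq), and each ends at the last base before the gene's start.
Calm4: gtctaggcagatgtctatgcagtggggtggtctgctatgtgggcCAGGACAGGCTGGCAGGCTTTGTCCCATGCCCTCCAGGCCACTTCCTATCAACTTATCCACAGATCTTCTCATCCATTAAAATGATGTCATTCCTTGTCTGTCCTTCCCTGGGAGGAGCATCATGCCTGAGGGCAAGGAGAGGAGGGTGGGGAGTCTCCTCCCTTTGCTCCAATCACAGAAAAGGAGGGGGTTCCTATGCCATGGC
Calm5: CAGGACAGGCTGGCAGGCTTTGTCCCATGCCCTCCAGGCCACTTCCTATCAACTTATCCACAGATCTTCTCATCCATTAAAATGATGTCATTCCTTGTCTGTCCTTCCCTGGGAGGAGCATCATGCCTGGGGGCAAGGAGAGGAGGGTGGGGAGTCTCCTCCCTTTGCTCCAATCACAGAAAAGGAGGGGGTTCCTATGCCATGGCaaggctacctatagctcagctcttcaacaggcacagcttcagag
The probe sequences of the panel were not used here, so whether probes for Calm4 and Calm5 could bind each other's transcripts was not tested.

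The order of the genes across the epidermis was Krt1 and Calm5 deepest, then Krt77, then Calm4 and Sbsn nearest the surface, in both sections. Depth was measured from a line drawn along the surface of each strip through transcripts of the cornified genes Lor, Flg2, Hrnr and Lce1m, in a band from 10 µm outside to 30 µm below that line. This band ran for 25.2 mm in Utx-cKO and 24.5 mm in WT. Krt1 transcripts had a median depth of 6.31 µm in Utx-cKO (quartiles 3.58 and 10.0) and 6.17 µm in WT (3.59 and 9.57). Calm5 lay at 5.86 µm in Utx-cKO and 6.14 µm in WT. Krt77 lay at 4.48 and 4.60 µm. Calm4 and Sbsn lay nearer the surface, Calm4 at 3.87 and 3.89 µm and Sbsn at 3.53 µm in both sections. For scale, the basal keratin gene Krt5 had medians of 9.65 µm in Utx-cKO and 8.99 µm in WT, and the cornified gene Lor, which helped to place the line, 1.77 and 1.99 µm. The 5 genes did not share 1 layer. Sbsn and Calm4 lay nearer the surface than Them5, a gene of the granular and cornified list with medians of 4.02 and 4.89 µm. Them5 was picked for this after its values were seen, and Krt77 also lay nearer the surface than Them5 in WT. Lor, Flg2, Hrnr and Lce1m, which placed the line, all lay nearer the surface than Sbsn and Calm4. Dsc1, counted with other suprabasal differentiation genes, lay at 3.29 and 3.50 µm. Whether the name of spinous layer genes holds for Sbsn and Calm4 is not settled by these depths. Sbsn also peaked in the bin of 0 to 2 µm, like Lor and Flg2.

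**Figure D1:**
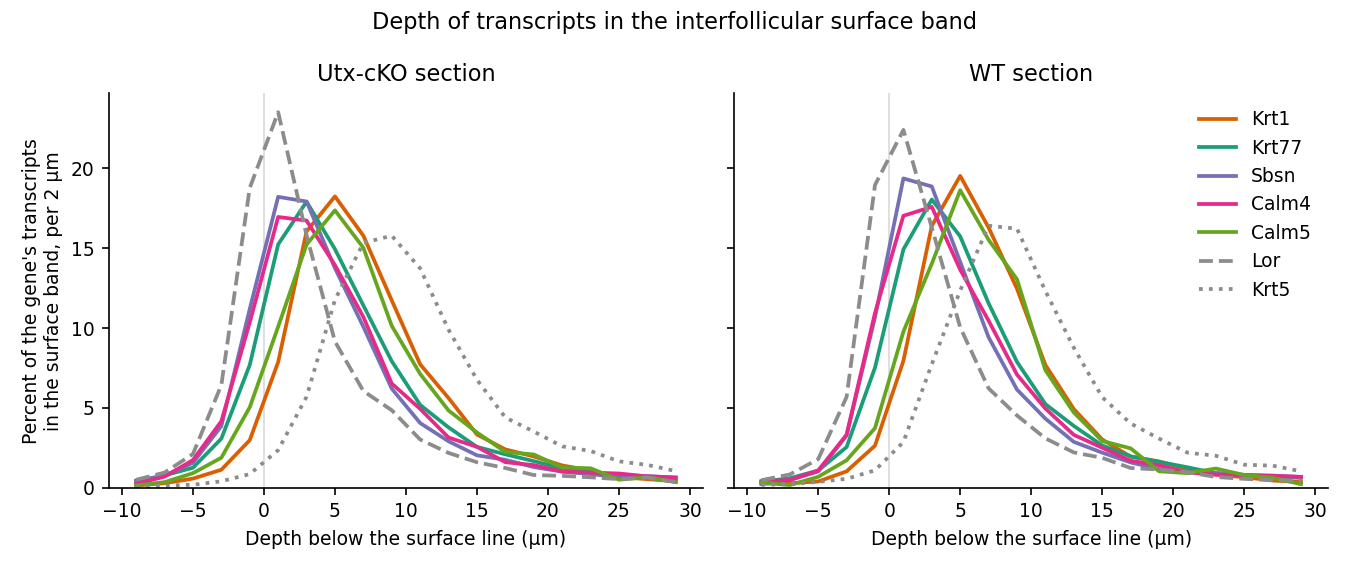
Share of each gene's transcripts in the surface band (vertical axis, percent per 2 µm bin) against depth below the surface line (horizontal axis, µm), in the Utx-cKO section (left) and the WT section (right). Solid lines are the 5 genes, the dashed grey line is the cornified gene Lor and the dotted grey line the basal gene Krt5. Krt1 and Calm5 peak at 4 to 6 µm in both sections, Sbsn at 0 to 2 µm, and Krt5 deeper than all 5.

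The strips bore out part of this order and left neighbours in it unresolved. Strip medians of Krt1 ran between 5.86 and 6.71 µm in Utx-cKO and between 5.86 and 6.62 µm in WT, all deeper than those of Krt77, which ran between 4.17 and 5.02 µm and between 4.0 and 5.46 µm. Calm5 medians ran between 5.72 and 7.11 µm in Utx-cKO and between 5.85 and 6.30 µm in WT and so overlapped those of Krt1. The ranges of Sbsn (3.21 to 4.24 µm and 3.03 to 4.11 µm) and Calm4 (3.63 to 4.51 µm and 3.51 to 4.40 µm) overlapped each other, and both overlapped Krt77. Within stretches of 20 µm along the surface the same was seen. The mean depth of Krt1 was greater than that of Krt77 in 958 of 1184 stretches in Utx-cKO (80.9%, 78.6 to 83.1) and in 878 of 1121 in WT (78.3%, 75.8 to 80.7). Krt1 lay deeper than Sbsn in 87.4% and 86.0% of stretches. Against Calm5 it lay deeper in 57.7% of 797 stretches in Utx-cKO and 53.9% of 701 in WT, so these genes were hard to order. Calm4 lay deeper than Calm5 in 31.2% and 27.2% of stretches.

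A second axis, drawn in windows of 40 µm from the centre of basal-marker to the centre of granular-marker transcripts, gave the same outline. Counted outwards from the basal centre, the medians in Utx-cKO were 5.29 µm for Calm5, 5.89 µm for Krt1, 8.08 µm for Krt77, 8.86 µm for Calm4 and 9.40 µm for Sbsn. In WT they were 3.84, 5.34, 7.58, 7.63 and 8.57 µm for the same genes in the same order. The windows included hair follicle openings and sebaceous glands: the lipid enzyme gene Elovl4 gave 22.0% of the granular-marker transcripts there in Utx-cKO and 12.7% in WT. The surface line follows the interfollicular epidermis more closely but was added after seeing the data. Krt1 and Calm5 trade places between the axes, and Krt77, Calm4 and Sbsn trade places under some settings.

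Calm4 and Calm5 differed in how their transcripts were spread in depth and within cells. Per Calm5 transcript there were 11.5 Calm4 transcripts just outside the surface line (-2 to 0 µm) in Utx-cKO and 17.1 in WT. At 8 to 10 µm below it there were 3.62 in Utx-cKO and 3.17 in WT. Over the whole band the ratio was 5.62 (5.35 to 5.90) in Utx-cKO and 5.84 (5.55 to 6.15) in WT, with overlapping intervals. Calm5 transcripts lay over a nucleus more often than those of the other 4 genes: 56.2% of Calm5 transcripts in Utx-cKO and 57.1% in WT did so, against 26.8% and 26.1% for Calm4, 29.7% and 30.4% for Sbsn, 29.6% and 31.7% for Krt77 and 41.0% and 42.9% for Krt1.

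In single cells of the band the same gradients appeared as shares of positive cells. Cells were placed by the median depth of their transcripts, those of the genes described here among them. A cell rich in shallow transcripts, such as those of Sbsn or Calm4, is thereby placed nearer the surface. The gradients in shares and in CPM were thus partly built in and are no independent check of the depth order. How large this part is was not tested. In Utx-cKO, Sbsn was found in 91.3% of cells less than 3 µm deep and in 52.6% of cells 12 to 30 µm deep, and Calm4 in 83.0% and 45.1%. In WT these shares were 86.5% and 55.8% for Sbsn and 76.8% and 43.2% for Calm4. Krt1 had its highest share at 3 to 6 µm, 83.6% in Utx-cKO and 68.4% in WT, with 74.0% and 59.6% above that layer. Krt77 was in 95.3% of Utx-cKO and 94.7% of WT cells in the outermost layer and still in 67.1% and 68.9% of the deepest. Median transcripts per cell fell with depth too, to 50 in the deepest Utx-cKO cells, against 80 in the outermost, and to 68 in the deepest WT cells, against 88 in the outermost. How much of the decline in shares comes with this was not tested. Scaled to CPM of the same cells, Sbsn fell from 57058 in the outermost to 22829 in the deepest layer in Utx-cKO. In WT it fell from 53946 to 21471. Calm4 fell from 30236 to 14487 CPM in Utx-cKO and from 22425 to 10519 in WT.

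Outside the interfollicular surface the genes parted. Epithelial cells were assigned to the marker list (basal, granular and cornified, upper hair follicle, sebocyte) with at least 3 transcripts and 1.5 times those of the next list. No list held any of the 5 genes. Cells that met this rule for no list, 23.4% of Utx-cKO and 21.5% of WT epithelial cells, were left as mixed. No class stood for spinous cells, so these classes cannot place a gene in the spinous or the granular layer. Of the 4 classes, all 5 genes were at their highest in cells with mostly granular and cornified markers. There Krt77 was found in 77.4% of Utx-cKO and 80.9% of WT cells and Sbsn in 88.5% and 87.9%. In cells with mostly upper hair follicle markers (Krt79, Krt17, Gata6 and others), Sbsn was found in 54.2% of Utx-cKO and 67.4% of WT cells and Krt77 in 35.9% and 50.4%, while Krt1 was in 4.62% and 2.45% and Calm5 in 3.41% and 1.75%. Among cells with mostly basal markers 20.7% in Utx-cKO and 19.0% in WT held Krt1. Sbsn was in 42.4% and 47.2% of them, and at 15407 CPM in Utx-cKO and 16207 CPM in WT its level there was the lowest of the 4 classes in either section. The leading genes of these cells included Tbx1 and Lhx2, which mark hair follicle cells, so they are not interfollicular basal cells alone.

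Sbsn stood apart from the other 4 in cells with mostly sebocyte markers (Scd1, Elovl3, Elovl6, Cidea, Fasn, Pparg). There it was found in 1090 of 1698 Utx-cKO cells (64.2%) and 442 of 948 WT cells (46.6%), at 21319 and 16996 CPM. In the same cells Krt1 was found in 0.471% and 0.422%, Krt77 in 2.65% and 1.37%, Calm4 in 1.00% and 0.738% and Calm5 in 0.412% and 0.527%, shares near those of non-epithelial cells. By strip the Sbsn level was 17511, 16643, 24932 and 18908 CPM in Utx-cKO and 18000.1, 8352, 20775 and 14793 in WT, so the sections overlapped. Sebocyte-marker cells thus held 11.0% of epithelial Sbsn transcripts in Utx-cKO and 4.74% in WT. Being epithelial cells, they had met the keratinocyte-marker rule, which counts no sebocyte marker. Sebocytes that did not meet that rule are not covered. The surface band held only 46.1% of all Sbsn transcripts in Utx-cKO and 54.6% in WT, against 87.8% and 89.8% of Krt1 transcripts.

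**Figure D2:**
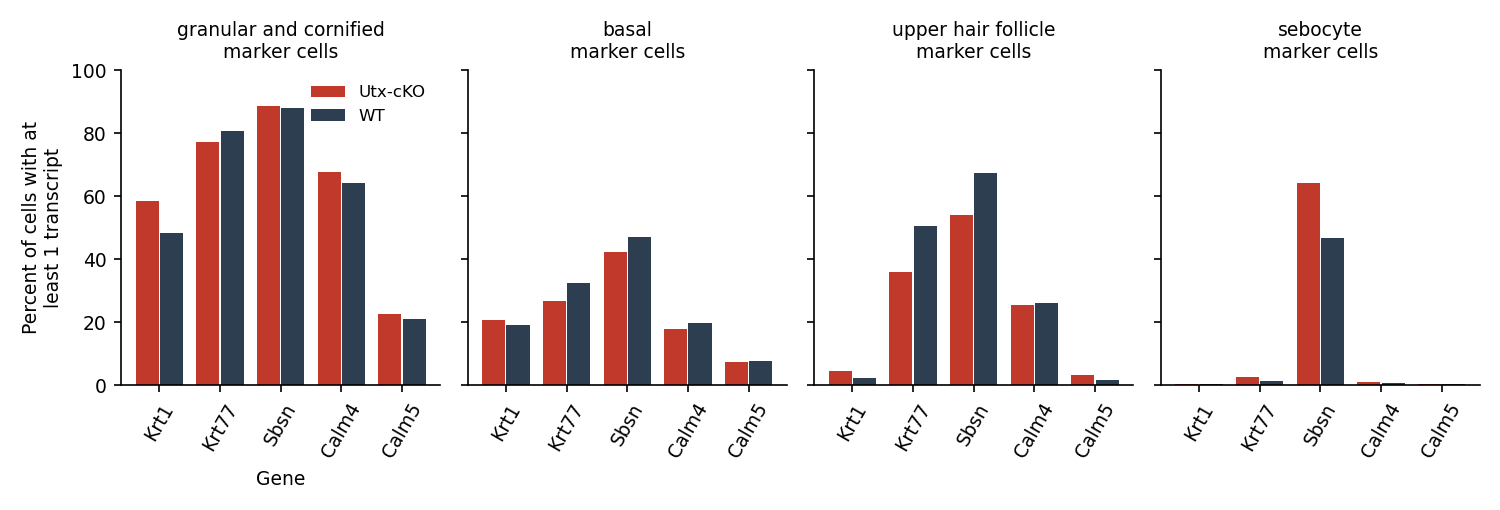
Percent of cells with at least 1 transcript of each gene (vertical axis) in 4 classes of epithelial cells named for the marker list they hold most of; the left bar of each pair is Utx-cKO and the right bar WT. Sbsn is the single tall pair among sebocyte-marker cells, at 64.2% and 46.6%, and Krt1 and Calm5 are near 0 in upper hair follicle-marker cells.

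The genes were detected together in the same cells to a degree that differed by pair. Of Krt1-positive epithelial cells, 87.7% (86.7 to 88.6) in Utx-cKO and 91.9% (91.0 to 92.8) in WT also held Krt77, against 17.4% and 23.9% of cells without Krt1. The reverse was lower: 58.4% of Krt77-positive cells in Utx-cKO and 50.6% in WT held Krt1. Thinned to 20 transcripts each, Krt1-positive cells held Krt77 in 64.1% and 63.6% of cases, against 15.1% and 20.1% of Krt1-negative cells, so the difference was still there at equal counts. Within the surface band it was smaller: thinned Krt1-positive cells held Krt77 in 64.6% of cases in Utx-cKO and 64.9% in WT, against 51.8% and 54.4% of Krt1-negative cells. Calm5-positive cells held Calm4 in 70.2% of cases in Utx-cKO and 72.2% in WT, against 19.9% and 20.4% of Calm5-negative cells. In thinned cells of the band it was not seen, with Calm4 in 30.7% of Calm5-positive cells in Utx-cKO and 23.2% in WT, against 31.5% and 24.3% of Calm5-negative cells. Krt1-positive epithelial cells held Sbsn in 77.1% of cases in Utx-cKO and 78.5% in WT, against 43.9% and 45.4% of Krt1-negative cells. For thinned cells of the band these shares were 48.3% and 41.9%, against 39.9% and 39.4%, nearly level in WT. Among cells of the surface band, 15.2% in Utx-cKO and 13.3% in WT held all 5 genes, and 6.29% and 7.36% held none.

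Per-cell likeness, Pearson's r of scaled log counts over the 22573 and 18170 epithelial cells, described the same neighbourhoods. These cells share a section and differ in transcripts per cell, so the values are descriptive. For Krt1 the most alike of the other panel genes were Krt77 (r = 0.65 in Utx-cKO and 0.56 in WT), the desmosomal cadherin gene Dsg1a (0.48 and 0.44) and Calm4 (0.48 and 0.40). For Krt77 they were Flg2 (0.57 and 0.63), Calm4 (0.57 and 0.57) and Krt1. Sbsn was most like the filaggrin-family gene Flg2 (0.43 and 0.44), Cdsn, which encodes corneodesmosin (0.39 and 0.44), and Krt77 (0.40 and 0.39). Calm4 was most like Krt77, Flg2 (0.51 and 0.54) and Lor (0.49 and 0.50). Calm5, with few transcripts per cell, was at most weakly like any gene, with Krt1 first (0.23 and 0.23).

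Basal keratin transcripts were common in cells with these genes. Of Krt1-positive epithelial cells, 70.3% in Utx-cKO and 79.0% in WT held Krt5, against 51.2% and 58.2% of Krt1-negative cells. Krt15 was in 69.9% of Utx-cKO and 85.8% of WT Krt1-positive cells, beside 58.3% and 68.3% of all epithelial cells. In the other direction, 27.7% of Krt5-positive cells in Utx-cKO and 26.5% in WT held Krt1, and 37.9% and 44.5% held Krt77. Thinned to 20 transcripts, the share with Krt5 was 40.7% of Krt1-positive cells in Utx-cKO and 44.2% in WT. In Krt1-negative cells it was 36.2% and 41.3%, a small difference. Within the surface band its direction turned round. Thinned Krt1-positive band cells held Krt5 in 41.8% of cases in Utx-cKO and 44.5% in WT, less often than Krt1-negative ones. Of all thinned band cells, 29.5% in Utx-cKO and 37.7% in WT held Krt5 without Krt1, and 31.3% and 37.1% held neither. With transcripts over the nucleus alone, 48.2% of Krt1-positive cells in Utx-cKO and 57.3% in WT held Krt5. The share of Krt1-negative cells is not given beside these, so they show no association by themselves. Basal genes were among the markers that made a cell epithelial, so some share of Krt5 and Krt15 was built in. In non-epithelial cells 7.41% of the 108 Krt1-positive cells in Utx-cKO and 4.55% of the 88 in WT held Krt5. Those cells were set apart by few keratinocyte markers, Krt5 among them, so a low share there was built in too and is no independent background.

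Cells with both kinds of keratin lay between those with 1 kind, an order that was partly built in. A cell's depth was the median depth of its transcripts, and Krt5 transcripts lay deeper than those of Krt1 and Krt77. In the surface band, 1587 of 5931 Utx-cKO cells (26.8%) and 1415 of 5924 WT cells (23.9%) had at least 2 transcripts of both Krt1 and Krt5. Their median depth was 7.64 µm in Utx-cKO and 6.86 µm in WT. Cells with at least 2 Krt1 and no Krt5 transcripts lay at 3.95 and 3.63 µm, and cells with at least 2 Krt5 and no Krt1 at 10.8 and 9.40 µm. The quartiles of the 3 kinds overlapped. In 62.6% of the double-positive cells in Utx-cKO and 62.4% in WT both transcripts were also found over the nucleus. Krt77 with Krt5 gave the same order, at 3.53, 7.44 and 11.1 µm in Utx-cKO and 3.37, 7.0 and 11.1 µm in WT. Double-positive cells held more transcripts (a median of 100 in Utx-cKO and 128 in WT for Krt1 and Krt5) than cells with Krt5 and no Krt1 (48 and 65), and whether they are single cells or neighbours joined by segmentation was not tested.

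**Figure D3:**
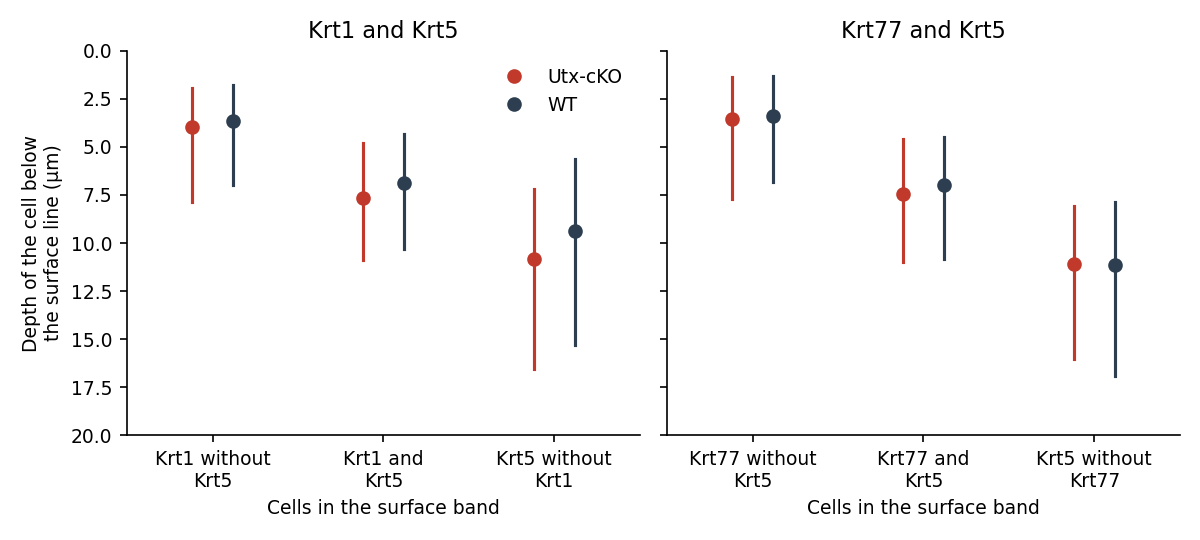
Depth below the surface line (vertical axis, µm, surface at the top) of surface-band cells with at least 2 transcripts of Krt1 (left) or Krt77 (right), of Krt5, or of both; cells of 1 kind have none of the other gene. Points are medians and lines run between the quartiles, Utx-cKO left of WT; cells with both genes have intermediate medians, 7.64 and 6.86 µm for Krt1.

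Between the sections, the levels of the 5 genes in epithelial cells differed by less than 1.5-fold. Krt1 stood at 10462 CPM in Utx-cKO and 7316 CPM in WT, a log2 ratio of 0.52 (0.48 to 0.55), the largest of the 5. Krt77 stood at 19891 CPM in Utx-cKO and 23672 CPM in WT, a log2 ratio of -0.25 (-0.27 to -0.23). Sbsn was at 24013 and 24362 (-0.02, -0.04 to 0.00). Calm4 was at 8479 and 7491 (0.18, 0.14 to 0.22), and Calm5 at 1603 and 1415 (0.18, 0.09 to 0.26). So 0 of 5 were at least 1.5 times higher and 0 of 5 at least 1.5 times lower, where 11.9% of the 464 genes compared were higher and 2.8% lower by that size. The median log2 ratio was 0.18 for the 5 genes and 0.08 for all genes compared. In bulk sums such as these, fewer cells of a type and less RNA per cell cannot be told apart.

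The strips overlapped for every one of the 5. Krt1 was at 10819, 12942, 5241 and 18916 CPM in the Utx-cKO strips and at 8974, 8732, 5122 and 8403 CPM in the WT strips. Utx-cKO strips 1, 2 and 4 exceeded the highest WT strip, and Utx-cKO strip 3 lay near the lowest one. Krt77 ran from 12410 to 30360.0 CPM in Utx-cKO and from 16225 to 35070 in WT. Over all 464 genes, 3.23% had every Utx-cKO strip above and 3.45% every Utx-cKO strip below the WT strips. The Krt1 ratio rested on single strips. Without Utx-cKO strip 4 its log2 ratio was 0.19, without Utx-cKO strip 3 it was 0.94, and without WT strip 3 it was 0.26. That of Krt77 was 0.08 without Utx-cKO strip 3, against -0.25 with it. The third strip of either section was its richest in transcripts per cell and its poorest in Krt1 and Krt77. Marker sums of other cells moved beside these levels: upper hair follicle markers summed to 38371 CPM in Utx-cKO epithelial cells (32513 to 52119 by strip) and 23748 in WT (18918 to 32942), and sebocyte markers to 40696 (28974 to 48000) and 22553 (21142 to 27709), with no marker at 0. Their part in the differences was not tested.

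**Figure D4:**
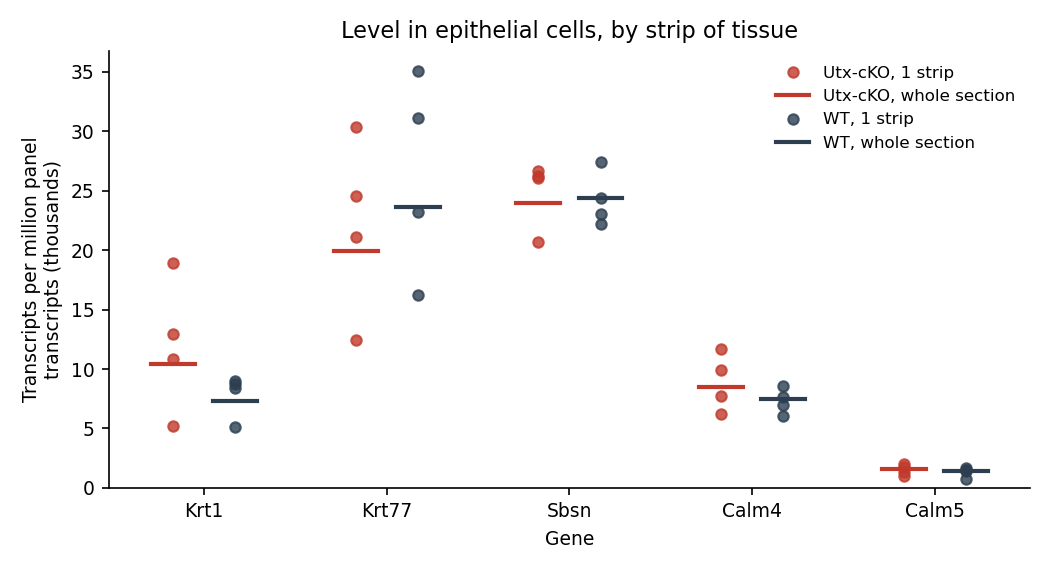
Level in CPM divided by 1000 (vertical axis, from 0) of the 5 genes in epithelial cells; each point is 1 strip of tissue and each line the whole section, Utx-cKO left of WT for each gene. The points of the sections overlap for all 5 genes, and the widest spread of Krt1 is among the Utx-cKO strips, 5241 to 18916 CPM.

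In the surface band, which follows the interfollicular surface, Krt1 differed as much per length and more in CPM. It had 592 transcripts per mm of epidermis in Utx-cKO and 412 in WT, a log2 ratio of 0.52 (0.49 to 0.56). Krt77 had 1058 per mm in Utx-cKO and 1279 in WT (-0.27, -0.30 to -0.25), Sbsn 743 and 867 (-0.22), Calm4 438 and 415 (0.08) and Calm5 77.9 and 71.0 (0.13). Per mm, 0 of the 5 passed 1.5-fold in either direction, beside 3.09% of 324 genes higher and 21% lower. The whole band was poorer in transcripts of the panel, with 518937 in Utx-cKO and 624824 in WT. In CPM of the band the log2 ratios were 0.83 for Krt1, 0.04 for Krt77, 0.09 for Sbsn, 0.39 for Calm4 and 0.44 for Calm5. On that scale 1 of the 5, Krt1, was at least 1.5 times higher, beside 7.41% of genes higher and 7.1% lower. Per mm the Krt1 strips overlapped, at 608, 482, 451 and 766 in Utx-cKO and 660, 251, 456 and 327 in WT. The strips of the other 4 genes overlapped as well per mm, beside 0% of genes with every Utx-cKO strip above and 1.54% with every one below. In CPM of the band the Calm4 strips were apart, from 18762 to 25264 in Utx-cKO and from 13500.2 to 16908 in WT. Those of Krt1 overlapped, from 18572 to 37083 in Utx-cKO and from 12038 to 20525 in WT, as did those of the remaining 3, so 1 of 5 genes was apart, beside 1.85% of genes above and 3.4% below.

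The ratio between the neighbouring keratin genes had its strips apart, where those of either level overlapped. Such a ratio does not depend on the scaling of a section. There were 0.559 Krt1 transcripts per Krt77 transcript in the Utx-cKO band (0.548 to 0.571) and 0.322 in the WT band (0.315 to 0.329). The strips gave 0.535, 0.563, 0.496 and 0.619 in Utx-cKO and 0.405, 0.260, 0.327 and 0.280 in WT, and did not overlap. Of the 10 ratios among the 5 genes this was the 1 whose strips were apart, in the band and in epithelial cells alike, beside 5.1% of all pairs of genes in the band and 6.17% in epithelial cells. With 10 ratios looked at, 1 set apart is not far from those shares and does not single out this pair. With a quality score of at least 30 the epithelial ratio was 0.619 in Utx-cKO and 0.337 in WT, and over nuclei alone 0.694 and 0.397. The share of Krt1 transcripts that reached a score of 20 was lower in Utx-cKO, 77.6%, than in WT, 87.8%.

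The Krt1 to Krt77 ratio climbed with depth to its highest values at 10 to 12 µm in Utx-cKO and 8 to 10 µm in WT and declined below that. It was higher in Utx-cKO in each 2 µm bin from 8 µm outside the surface line to 30 µm below it. At 0 to 2 µm it was 0.289 in Utx-cKO and 0.171 in WT. At 4 to 6 µm it was 0.683 and 0.399, and at 8 to 10 µm 0.828 and 0.509. The Calm4 to Calm5 ratio was not offset in 1 direction. Outside the surface line, at -2 to 0 µm, it was 11.5 in Utx-cKO and 17.1 in WT. At 4 to 6 µm it was 4.51 and 4.28, at 10 to 12 µm 3.89 and 3.94, and at 18 to 20 µm, where Calm5 had 41 and 18 transcripts, 3.83 and 8.0. Its strips in the band overlapped, from 3.8 to 9.50 in Utx-cKO and from 5.43 to 9.88 in WT. With a quality score of at least 30 its epithelial value was 5.02 in Utx-cKO and 4.36 in WT.

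**Figure D5:**
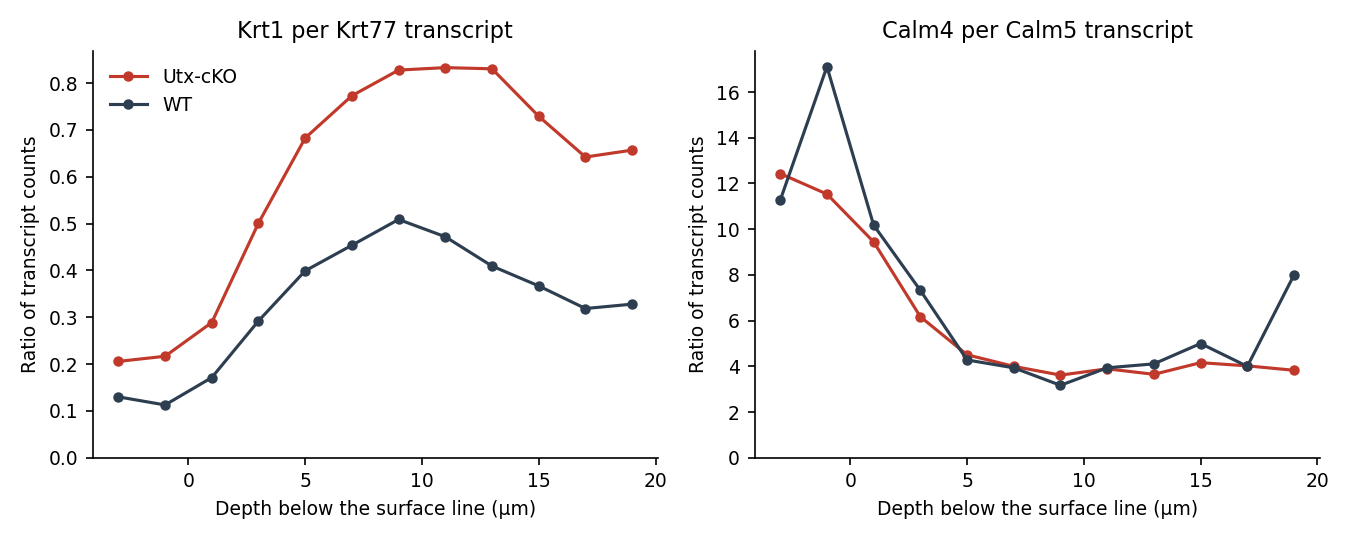
Ratio of transcript counts (vertical axes, from 0) against depth below the surface line (horizontal axes, µm, 2 µm bins), for Krt1 per Krt77 transcript (left) and Calm4 per Calm5 transcript (right), with Utx-cKO in red and WT in dark blue. The Utx-cKO line lies above the WT line at every depth plotted on the left (0.828 and 0.509 at 8 to 10 µm), and the lines run close together from 5 µm down to 13 µm on the right.

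The Krt1 difference was not the same size in each class of cell. In cells with mostly granular and cornified markers Krt1 stood at 25766 CPM in Utx-cKO and 14335 in WT, a log2 ratio of 0.85 (0.79 to 0.91). By strip it was 26467, 31379, 15252 and 34895 in Utx-cKO and 21613, 17761, 9881 and 14306 in WT, which overlap. Without WT strip 3 the log2 ratio in these cells was 0.56. Krt77 stood at 58309 CPM in Utx-cKO and 58473 in WT and Sbsn at 53229.7 and 54514. The log2 ratios of Calm4 and Calm5 were 0.42 and 0.39. The list that drew this class includes Elovl4, with 22724 transcripts in Utx-cKO epithelial cells and 11246 in WT. The class may thus not hold the same cells in both sections, and how much this matters was not tested. In basal-marker cells the log2 ratio was 0.58 for Krt1 and -0.31 for Krt77, with overlapping strips for both. Krt1 ran from 4387 to 18822 CPM in Utx-cKO and from 4170 to 7706 in WT. Krt77 ran from 7852 to 24706 CPM in Utx-cKO and from 11258 to 22814 in WT. Without Utx-cKO strip 3 the ratios were 1.03 for Krt1 and 0.045 for Krt77, and without Utx-cKO strip 4 they were 0.24 and -0.60. In upper hair follicle-marker cells Krt1 was at 1679 CPM in Utx-cKO and 602 in WT, from 167 and 19 transcripts (log2 1.48, 0.79 to 2.25). Its strips overlapped, from 296 to 4510 CPM in Utx-cKO and from 102 to 1141 CPM in WT. Utx-cKO strip 4 gave 75 of the 167 transcripts, and without it the level was 1111 CPM in Utx-cKO and 602 in WT (log2 0.88, 0.16 to 1.68). The log2 ratios of Krt77 and Sbsn in these cells were -0.64 and -0.59, again with overlapping strips: Krt77 ran from 8620 to 22133 CPM in Utx-cKO and from 14517 to 23447 CPM in WT, and Sbsn from 18088 to 36025 CPM and from 27634 to 35463 CPM. That class held 1905 Utx-cKO cells, 958 of them in strip 1, and 571 WT cells. Without Utx-cKO strip 1 the ratios were -0.27 for Krt77 and -0.39 for Sbsn.

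Cells with Krt1 but little Krt5 were more frequent in the Utx-cKO band. At least 2 Krt1 and fewer than 2 Krt5 transcripts were found in 23.2% of Utx-cKO and 12.3% of WT band cells. The strips ran from 18.1% to 31.2% in Utx-cKO and from 11.4% to 15.1% in WT, and did not overlap. For Calm4 the shares were 22.0% and 14.8%, with strips from 19.5% to 28.1% in Utx-cKO and from 11.4% to 17.4% in WT, again apart. The strips of Krt77, Sbsn and Calm5 overlapped, so 2 of 5 genes were apart, both above, beside 1.55% of 323 genes above and 0.31% below. With each cell thinned to 20 transcripts and 1 transcript taken as positive, the Krt1 shares were 22.8% and 13.99% and the Calm4 shares 20.6% and 14.5%. Both the higher Krt1 and the lower Krt5 of the Utx-cKO band enter these shares: Krt5 had a log2 ratio of -0.43 per mm and -0.12 in CPM of the band.

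The other genes of the pathway were compared in the same epithelial cells. Of 8 basal genes on the panel, 0 were past 1.5-fold in either direction, with a median log2 ratio of -0.24. Krt15 was at 34981 CPM in Utx-cKO and 47686 in WT (log2 -0.45), the hemidesmosome gene Dst at -0.47, Krt5 at -0.26 and the integrin gene Itgb1 at -0.04. Krt15 in all Utx-cKO strips lay below all WT strips, beside 3.45% of all genes compared. The gap was narrow, with 40482 CPM in the highest Utx-cKO strip and 41003 CPM in the lowest WT strip. Of 16 other suprabasal differentiation genes 0 were past 1.5-fold and the median was -0.01, with Mal2 at 0.51 and Krt2, a late suprabasal keratin, at 0.39, and Capns2 at -0.57 and Klf4, a barrier transcription factor, at -0.46. Of 20 granular and cornified genes 1 was higher and 2 were lower, with a median of -0.22: Elovl4 (0.95), a fatty acid elongase, against the transglutaminase gene Tgm3 (-1.30) and the lipoxygenase gene Aloxe3 (-0.62), beside 11.9% of all genes compared higher and 2.8% lower. In the surface band per mm, 3 of 8 basal genes were at least 1.5 times lower, Krt15 at -0.98 and Dst at -0.87 among them, beside 21% of all genes compared there. Per mm the Krt15 strips overlapped, from 383 to 912 in Utx-cKO and from 498 to 1810 in WT. In CPM of the band they overlapped too, from 17040 to 37561 in Utx-cKO and from 36659 to 47782 in WT. Krt10 and Krt14 are not on the panel.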

How the data were processed

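Per the labels' protocols, 5 µm paraffin sections were probed for 480 genes chosen by the authors, besides negative control probes. Counts per segmented cell come from the cell tables as deposited. Each transcript in the deposited lists carries its gene, its position in µm, its cell and whether it lies over a nucleus, and a quality score that reaches 40. Decoding and segmentation software: not given in the sources used here.

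Transcripts with a score of at least 20 were counted per cell with Python 3.11.15 (numpy 2.4.6, pandas 2.3.3, scipy 1.17.1). Tissue linked within 50 µm and holding at least 1000 cells made a strip, numbered by position. No doublet caller was run. Ratios are Utx-cKO over WT of CPM from summed counts, for genes with at least 200 counts, with conditional binomial intervals; shares have Clopper-Pearson intervals. Windows lay at least 20 µm apart on cells with 3 basal-marker transcripts and 10 granular-marker transcripts nearby. The surface line is the smoothed 75th percentile of cornified transcripts per 20 µm. Ratio intervals and both axes were tested on simulated data. Genes named are the 5, the 3 most like each, the 2 highest and 2 lowest of 3 pathway lists, Krt5, Krt15 and Kdm6a. Named after their values were seen were Them5, Dsc1, Elovl4 in the windows and classes, the markers of each class and genes that lead a class. The 5 genes and all lists were chosen with earlier results of these data known. All columns used belong to the 2 sections (0 others). Gene order and promoters are from RefSeq; 4 of the 5 genes have a promoter entry.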

Additional observations from a re-analysis of the deposited data

How the results depend on the processing

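No paired analysis was possible because each genotype has 1 section. Alternatives covered quality, cell and gene filters, nuclear transcripts, scaling, thinning, window size and leaving out each strip, and the surface band and surface line were added after seeing the data. The cause of each change was not tested except where fewer transcripts or cells were used by construction. With 1 of 5 genes at least 1.5 times higher, Krt1 passed that size at a score of at least 30 (log2 0.70), in CPM of the band (0.83) and without Utx-cKO strip 3 or WT strip 1; the number of the 5 higher ran from 0 to 1 over the strips left out. The Krt1 log2 ratio in epithelial cells was 0.44 over nuclei, 0.56 in cells of at least 40 transcripts, 0.27 as mean counts per cell, 0.44 centred on the median of all genes, 0.47 with the 10 most abundant genes out of the total, and 0.19 to 0.94 with a strip left out. The Krt77 ratio was -0.19 at a score of 30, -0.37 over nuclei, -0.21 in cells of at least 40 transcripts, -0.28 with 15% keratinocyte markers, -0.50 per cell, -0.33 centred, -0.30 without the abundant genes in the total, 0.036 in CPM of the band, and -0.52 to 0.077 with a strip left out, turning sign without Utx-cKO strip 3. The Sbsn ratio was -0.087 at a score of 30, -0.056 over nuclei, -0.061 with 15% markers, -0.27 per cell, -0.10 centred, -0.069 without the abundant genes in the total, 0.045 thinned, 0.086 in CPM of the band, -0.22 per mm, and -0.065 to 0.11 with a strip left out. The Calm4 ratio was 0.34 at a score of 30, 0.22 over nuclei, -0.070 per cell, 0.10 centred, 0.13 without the abundant genes in the total, 0.33 thinned, 0.39 in CPM of the band, 0.077 per mm, and 0.035 to 0.42 with a strip left out. The Calm5 ratio was -0.069 per cell, 0.44 in CPM of the band, and 0.080 to 0.26 with a strip left out. Of all genes, 26 were higher and 54 lower per cell, 27 higher after thinning, 20 lower at a score of 30, 21 lower after centring, 24 higher and 23 lower in CPM of the band, 10 higher and 68 lower there per mm, and 44 to 66 higher and 13 to 40 lower with a strip left out. The distance between the deepest and the outermost gene was 5.83 µm in Utx-cKO and 5.81 µm in WT with a radius of 60 µm, 3.45 µm in WT with 25 µm, 2.77 and 2.64 µm below the surface line, and 3.61 to 4.60 µm in Utx-cKO and 4.67 to 4.99 µm in WT with a strip left out. Krt1-positive cells held Krt77 in 64.1% of Utx-cKO and 63.6% of WT cases after thinning, 85.1% and 90.4% with at least 2 transcripts, 68.3% and 77.2% over nuclei, 83.4% and 89.5% at a score of 30, 91.4% and 94.0% in cells of at least 40 transcripts, and 87.2% to 88.2% and 91.4% to 92.2% with a strip left out. They held a basal-list transcript in 76.9% and 83.8% after thinning, 86.5% and 92.6% with at least 2 transcripts, 82.7% and 88.6% over nuclei, 89.8% and 94.3% at a score of 30, and 90.6% to 93.1% and 94.6% to 96.8% with a strip left out.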
